A study of Mus musculus with 2 samples.

Results

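A set of 10 genes of protein folding in the endoplasmic reticulum (ER) were followed in bone marrow macrophages treated with RANKL, the cytokine under which macrophages become osteoclasts. They were taken from the files by symbol, as a set put together with earlier results of these data known: the chaperones Hspa5, Hsp90b1, Calr, Canx, Dnajb9 and Sdf2l1, the disulfide isomerases Pdia3, Pdia4 and Pdia6, and the transcription factor Xbp1. All 10 were found among the 16614 genes listed in both files and all 10 belonged to the 10003 measured genes, those at 1 FPKM or more in at least 1 library. FPKM is fragments scaled for transcript length and library size. Both cultures came from C57BL/6 marrow, grown with M-CSF for 3 days and then with RANKL for 2 days. One library was from wild-type (WT) cells and the other from Foxo3 knockout (KO) cells, 1 library per genotype. How the allele was made, the age of the mice and any pooling of animals are unstated in the sources at hand. The series asked, by its title, what an isoform of FoxO3 does in osteoclast inhibition.

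No value below has a replicate error. Each difference compares 2 libraries, not the genotypes, and no test was possible. Differences are log2 ratios, log2(KO + 1) minus log2(WT + 1) in FPKM. Foxo3 itself read 10.3 FPKM in WT and 0.548 FPKM in KO cells, 5.33% of the WT value. Its transcript was thus still listed in the KO library, and gene-level values do not tell its isoforms apart. By the values of low genes, the KO library was about 1.39 times as deep as the WT library.

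Proteins bound for lysosomes, the cell surface or secretion fold in the ER. There, chaperones of the Hsp70 and Hsp90 families hold unfolded chains, lectin chaperones hold chains that carry sugars, and isomerases form and shuffle disulfide bonds. When unfolded chains build up, 3 sensors, encoded by Ern1, Eif2ak3 and Atf6, start the unfolded protein response, which raises most of the 10 genes through the factors ATF6 and XBP1. Osteoclasts make large amounts of secreted and lysosomal enzymes, all of which pass through the ER.

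ATF6, with the factor NF-Y, is known to act through the ER stress response element (ERSE), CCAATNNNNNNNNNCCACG, whose first 5 bases bind NF-Y. The window from 250 bases before to 50 bases after the RefSeq gene start (build GRCm38.p6) was searched on both strands for all 10 genes. An ERSE lay in the windows of 5 of the 10, Hspa5, Hsp90b1, Calr, Canx and Pdia6, against 39 of all 32851 windows in the table (0.119%). Hsp90b1 had 2 of them. As the response that acts through this element is known to raise most of the 10, the count is no test of the set. Pdia3 and Pdia4 held the element without its last base, CCAATNNNNNNNNNCCAC, a form that is found in 0.365% of windows and includes every full ERSE. The matches in these 7 genes are shown as letters of a known element, not as sites shown to act in these cells. Capitals mark the NF-Y box and the part of the element known to bind ATF6. Each is written 5′ to 3′ in the direction of the element with 5 flanking bases at either end.
Hspa5, chr2:34772020-34772048, plus strand: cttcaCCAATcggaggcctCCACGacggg
Hsp90b1, distal, chr10:86705633-86705661, minus strand: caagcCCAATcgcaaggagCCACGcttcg
Hsp90b1, proximal, chr10:86705528-86705556, plus strand: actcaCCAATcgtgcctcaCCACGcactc
Calr, chr8:84847070-84847098, plus strand: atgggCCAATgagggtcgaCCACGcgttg
Canx, chr11:50325795-50325823, minus strand: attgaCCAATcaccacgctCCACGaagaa
Pdia6, chr12:17266486-17266514, plus strand: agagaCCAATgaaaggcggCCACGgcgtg
Pdia3, last base differs, chr2:121413868-121413895, plus strand: cgcagCCAATcggcggctgCCACactgc
Pdia4, last base differs, chr6:47813597-47813624, plus strand: gaccaCCAATcacgggctgCCACtcggt

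The ERSE of Hspa5 began 65 bases before the RefSeq start, that of Pdia6 98 bases, that of Canx 145 bases and that of Calr 162 bases before it. In Hsp90b1 they began 212 and 107 bases before the start. The elements of Calr and Pdia4 and the proximal one of Hsp90b1 ran opposite to the gene. In GENCODE M21 the elements of Hspa5 and Pdia3 fall inside an exon of that same gene, since that annotation starts these genes further upstream, and the others fall in no annotated gene. Dnajb9, Sdf2l1 and Xbp1 held neither form in these windows. The related ERSE-II, ATTGGNCCACG, which overlaps the NF-Y box, was in 0 of the 10 windows and 0.0365% of all. The NF-Y box alone, CCAAT, was in 9 of the 10 windows, all but that of Xbp1, and in 37.4% of all. The forkhead element GTAAACA, the core that FoxO factors bind, was in 0 of the 10 windows and 3.65% of all. A match is a description of the letters, not a site shown to be bound.

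**Figure D1:**
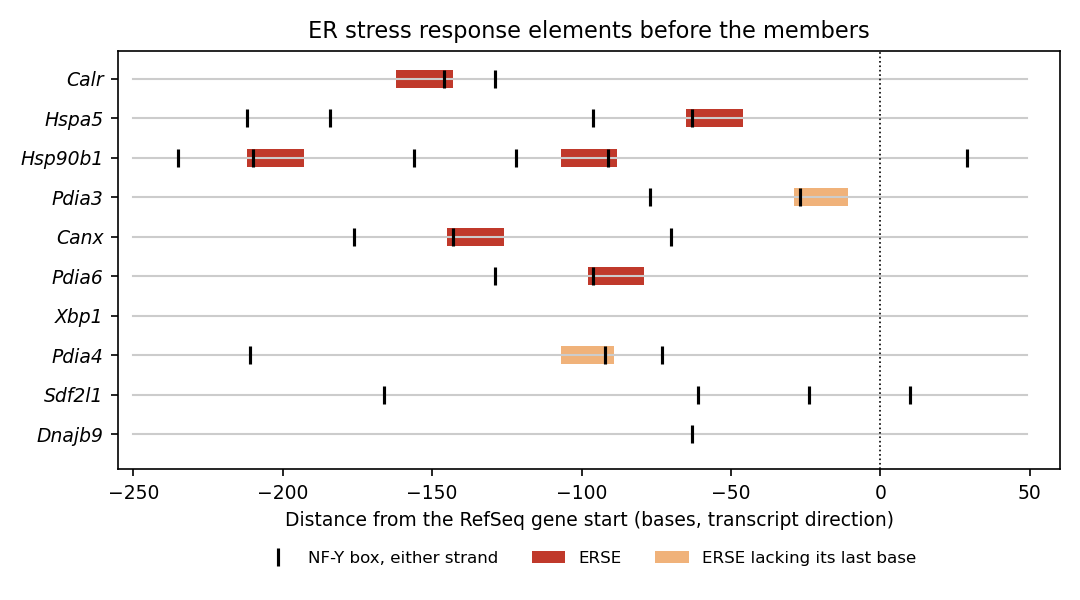
Positions of elements around the start of each of the 10 genes, in bases from the RefSeq gene start in transcript direction, ordered by WT level. Red boxes are full ERSEs, orange boxes the form without its last base, and ticks every NF-Y box, inside an element or not; 5 genes carry a full ERSE, and Xbp1 carries none of the 3.

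The ER folding genes stood slightly lower in the KO library. The log2 ratio was below 0 for 9 of the 10, with a median of -0.12, and ran from -0.19 for Pdia6 to 0.01 for Calr. After either rescaling of the libraries, by trimmed mean or by the median gene, it was below 0 for all 10, since Calr moved to -0.01. Centring on the median gene puts as many measured genes below 0 as above it by construction. Over all 10003 measured genes the unscaled ratio was below 0 for 42.4%, with a median of 0.03. Among the 2164 genes at or above the level of the lowest of the 10, Dnajb9 with 41.6 FPKM in the WT library, it was below 0 for 34.6%, with a median of 0.04 and quartiles of -0.03 and 0.12. The 10 genes together summed to 2374 FPKM in WT and 2258 FPKM in KO cells, the latter 95.1% of the former. Their share of all FPKM was 0.447% in WT and 0.418% in KO cells.

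The differences were small. None of the 10 was lower or higher by 2-fold, which 0.2% of measured genes were on the low side and 0.12% on the high side. None passed 1.5-fold, against 0.94% of measured genes lower and 0.41% higher, and none passed 1.2-fold, against 6.23% lower and 4.93% higher. A threshold of 1.1-fold was added after the values were seen. By it 5 of the 10 were lower, namely Pdia6, Pdia4, Sdf2l1, Hspa5 and Dnajb9, against 14.8% of measured genes and 11.7% of those at or above the level of Dnajb9. At that threshold 0 of the 10 were higher, against 19.2% of measured genes. Dnajb9 and Hspa5 lay just past it, at log2 ratios of -0.14 and -0.15, and Hsp90b1 just short of it, at -0.10.

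**Figure D2:**
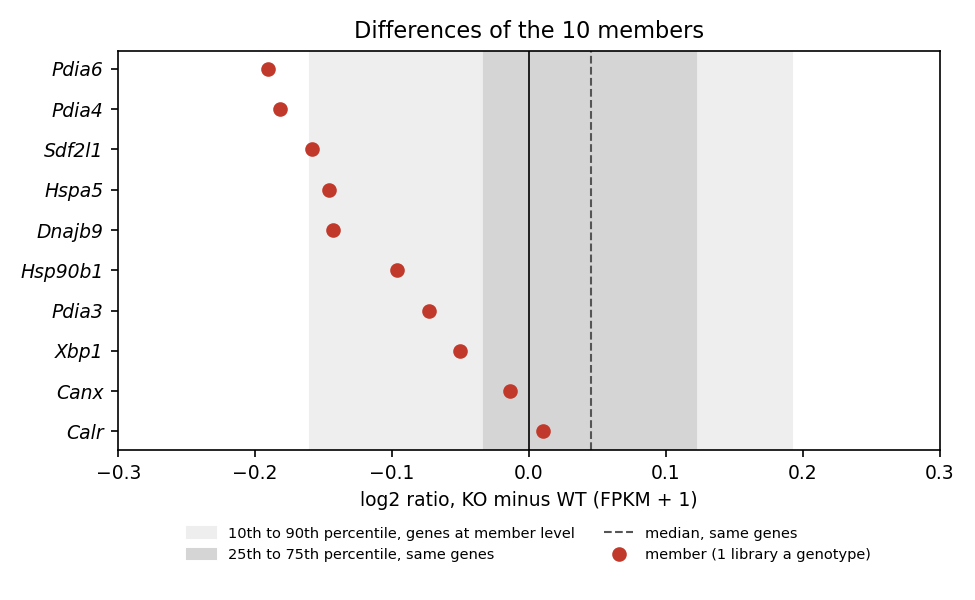
Log2 ratio of each of the 10 genes (KO minus WT, FPKM + 1), with the grey bands and dashed line giving the spread and median of the 2164 measured genes at or above the level of the lowest of the 10. Pdia6 and Pdia4 lie below the 10th percentile of those genes, and Calr and Canx lie within the middle band.

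Hspa5 encodes BiP, the Hsp70 chaperone of the ER lumen and the protein that keeps the stress sensors silent. Its level was 515.7 FPKM in WT and 465.8 FPKM in KO cells, a log2 ratio of -0.15. The KO value was 90.3% of the WT value, and 13.8% of measured genes had a lower ratio. In FPKM this was the widest gap of the 10. The gene lies on chromosome 2, 34771970 to 34777547 in GENCODE M21 (mm10).

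Dnajb9 encodes a J-domain partner of BiP that is a known target of XBP1. It read 41.6 FPKM in WT and 37.6 FPKM in KO cells, 90.3% of WT and a log2 ratio of -0.14. Sdf2l1, a lumenal partner of BiP and its J-domain proteins that is induced by ER stress, read 55.0 and 49.1 FPKM, with a log2 ratio of -0.16. BiP and both of these partners thus stood lower by near the same share, from 9.67% for Hspa5 to 10.6% for Sdf2l1, although Hspa5 was far more abundant. Dnajb9 lies on chromosome 12, 44205559 to 44210326, and Sdf2l1 on chromosome 16, 17130138 to 17132383.

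Hsp90b1, the ER member of the Hsp90 family, folds integrins and Toll-like receptors among other clients. Its level was 329.5 FPKM in WT and 308.2 FPKM in KO cells (log2 ratio -0.10), 93.5% of WT, and 20.2% of measured genes had a lower ratio. The gene, at 86690209 to 86705509 on chromosome 10, shares exon sequence with the transcript model 1810014B01Rik.

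The lectin chaperones differed least. Calr, calreticulin, binds sugar-bearing chains and calcium in the lumen and was the most abundant of the 10, at 717.0 FPKM in WT and 722.2 FPKM in KO cells, a log2 ratio of 0.01. Canx, calnexin, its membrane-bound relative, read 175.0 and 173.3 FPKM, a log2 ratio of -0.01. Both values were within 1% of each other in each gene. Calr stood at 1.39 times the FPKM of Hspa5 in WT and 1.55 times in KO cells. Calr lies on chromosome 8, 84841850 to 84846934, and Canx on chromosome 11, 50293961 to 50325673.

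Pdia3 is the disulfide isomerase that works on chains held by calnexin and calreticulin, and with calreticulin it takes part in loading peptides on MHC class I. It read 279.0 FPKM in WT and 265.2 FPKM in KO cells, 4.96% below WT, with a log2 ratio of -0.07, between the lectin chaperones and Hspa5. The other isomerases, which are found in complexes with BiP, had the lowest ratios of the 10. Pdia6 read 117.0 FPKM in WT and 102.4 FPKM in KO cells, 87.5% of WT and a log2 ratio of -0.19, and 9.81% of measured genes had a lower ratio. Pdia4 read 58.0 and 51.1 FPKM, 88.0% of WT and a log2 ratio of -0.18, with 10.5% of measured genes lower.

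The exons of Pdia3 (chromosome 2, 121413775 to 121438687) overlap those of Catsper2, and those of Pdia6 (chromosome 12, 17266545 to 17284770) overlap Atp6v1c2. Both neighbours were below 0.5 FPKM in each library, with Catsper2 at 0.4999 and 0.482 FPKM and Atp6v1c2 at 0.0465 and 0.0498 FPKM. Pdia4 (chromosome 6, 47796141 to 47813430) and Dnajb9 overlap only microRNA genes. No transcript of another gene matched any of the 10 at 95% identity or more over 200 bases, other than that of 1810014B01Rik.

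Xbp1 encodes the factor that the sensor IRE1, the product of Ern1, switches on by splicing its mRNA. It read 85.8 FPKM in WT and 82.8 FPKM in KO cells, 96.5% of WT and a log2 ratio of -0.05. The gene-level value does not separate the spliced from the unspliced form. Xbp1 lies on chromosome 11, 5520659 to 5525893. Its difference was thus smaller than those of Dnajb9 and Sdf2l1, and 28.9% of measured genes had a lower ratio.

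The order of the 10 genes by level was the same in both libraries: Calr, Hspa5, Hsp90b1, Pdia3, Canx, Pdia6, Xbp1, Pdia4, Sdf2l1 and Dnajb9. Calr was 17.2 times Dnajb9 in WT and 19.2 times in KO cells, in FPKM. By the mean of both libraries Calr ranked 122 and Hspa5 181 among the measured genes, Pdia6 ranked 752 and Dnajb9 ranked 2192. Pdia4 and Sdf2l1 lay nearest to each other, at 58.0 and 55.0 FPKM in the WT library, and with no replicates their order carries no error. Calr and Hspa5, the most abundant, had ratios of 0.01 and -0.15.

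**Figure D3:**
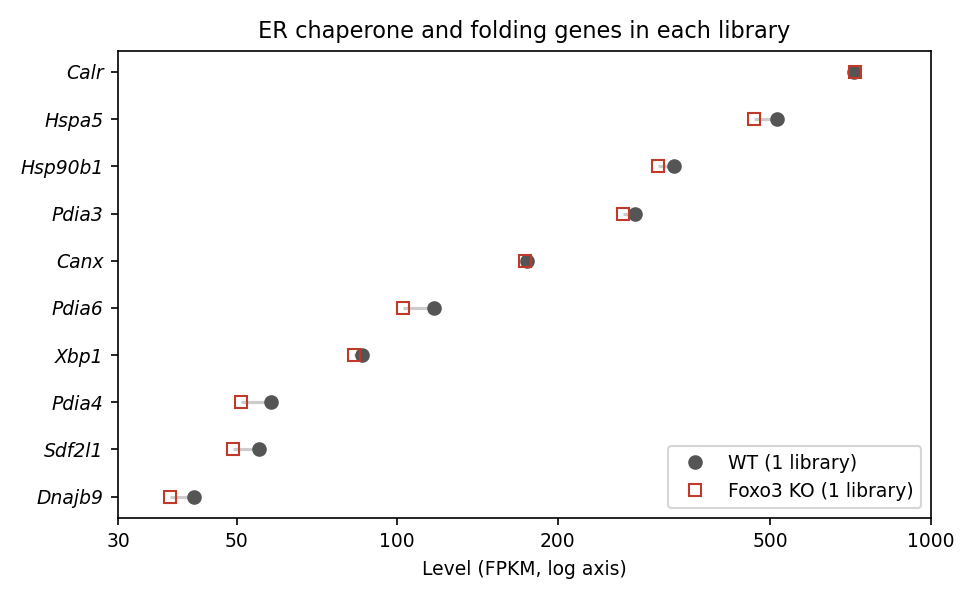
Level of each of the 10 genes in FPKM on a log axis, with a filled circle for the WT and an open square for the KO library, 1 library each. The square lies left of the circle for every gene but Calr, and the order of genes is the same in both.

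**Figure D4:**
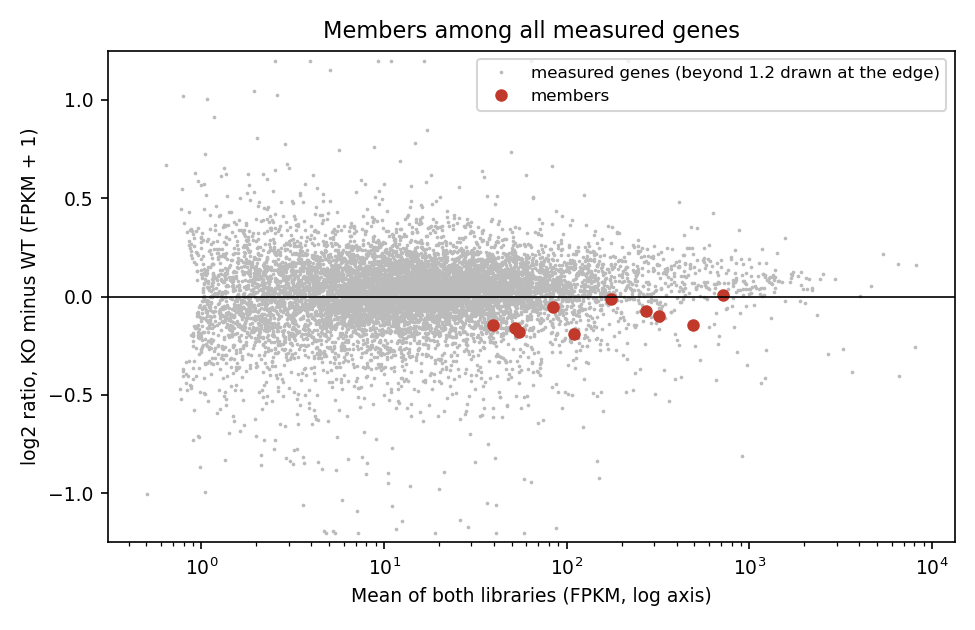
Log2 ratio (KO minus WT, FPKM + 1) of the 10003 measured genes against their mean FPKM on a log axis, with the 10 ER folding genes in red. The 10 lie at 39.6 FPKM or above and, apart from Calr, below 0, inside the cloud of other genes.

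Genes carrying an ERSE outside the 10 gave a further set of values; this set was looked at after those of the 10 were seen. Of 37 gene symbols with an ERSE, 13 were measured, and 8 of these were not among the 10. The log2 ratio was below 0 for 7 of the 8, against 42.4% of measured genes, with a median of -0.11. The wider set that also holds the form without its last base had 28 measured genes outside the 10. Of these, 18 were below 0, against 42.4% of measured genes, with a median of -0.08 and a range from -0.53 to 0.33. These 28 include the 8 with a full ERSE. Creld2, Syvn1, Dnajc3, Ero1lb, Derl2 and Herpud1 among them also belong to the ER lists below and are counted there again. Past 1.1-fold 8 of the 28 were lower and 7 higher, where 14.8% and 19.2% of all measured genes were. The lowest of the 8 with a full ERSE was Creld2, an ER stress-induced isomerase-like protein gene, at 23.4 FPKM in WT and 19.9 FPKM in KO cells (log2 ratio -0.22). Syvn1, the ubiquitin ligase of ER-associated degradation, read 32.3 and 28.8 FPKM (-0.16), and Dnajc3, a J-domain partner of BiP, read 40.2 and 37.0 FPKM (-0.12). The one of them above 0 was Pan2, a deadenylase subunit gene, at 7.48 and 8.88 FPKM (0.22). Within the 10, the ERSE carriers covered the whole range, from Pdia6 at -0.19 to Calr at 0.01, and Dnajb9 and Sdf2l1, with none in their windows, stood at -0.14 and -0.16. The 8 genes measured with an ERSE-II had a median of -0.04, with 6 below 0, against 42.4% of measured genes. The lowest were Lrif1 at -0.18, Herpud1 at -0.17 and Nucb1, a calcium-binding protein gene, at -0.15. The 2 above 0 were Lgalsl at 0.17 and Dnajb11 at 0.04. Herpud1 also holds the ERSE form without its last base and is thus among the 28. Dnajb11 and Krtcap2, of the ERSE-II genes, are likewise counted again in the ER lists below.

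Other genes of ER folding were described by 8 lists of 120 genes, of which 114 were measured. Of these, 58 were above and 56 below 0. Among all measured genes 42.4% were below 0, and among those at or above the level of Dnajb9 34.6% were. The 42.4% also stands beside the count of each list below, but only for unscaled ratios. Centring puts as many measured genes below 0 as above it by construction, and the share after trimmed-mean scaling was not counted. The median log2 ratio of the 114 genes was 0.0024, against 0.03 for all measured genes and -0.12 for the 10. Trimmed-mean scaling put 65 of them below 0, and centring on the median gene put 67, with medians of -0.02 both times, against -0.14 and -0.15 for the 10. Past 1.1-fold 11 were lower and 12 higher, where 14.8% and 19.2% of all measured genes were. The difference between the 10 and these lists was not tested. Among the genes named from these and the other lists, exons overlap those of another named gene for Ost4 (Agbl5), Tmem258 (Fen1), Ddit3 (Mars), Syvn1 (Mrpl49), Ppp1r15a (Tulp2), Tmx2 (Med19), Txndc5 (Bmp6) and Trap1 (Dnase1), and unnamed models for Rnf5, Sil1 and Acp5. Reads of such pairs may not be separable.

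The partners of the Hsp70 cycle were the list nearest to the 10, with 7 of 11 lower and a median of -0.07. Creld2, Dnajc10 and Sil1 lay farthest from 0 among those at 10 FPKM or more. Dnajc10, a J-domain protein that also reduces disulfides, read 25.2 FPKM in WT and 21.8 FPKM in KO cells (-0.21). Sil1, the exchange factor that frees BiP of ADP, went the other way, at 23.6 and 26.1 FPKM (0.14). Of the other thiol oxidoreductases 9 of 15 were lower, or 11 under either rescaling, with a median of -0.02. Prdx4, the ER peroxiredoxin, was the lowest ER gene of all lists, at 41.0 and 30.1 FPKM (-0.44), and Txndc5 read 41.1 and 35.1 FPKM (-0.22), while Tmx2 read 37.8 and 42.5 FPKM (0.17).

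The genes of glycan trimming and of the calnexin cycle, with other lectins and cargo receptors, stood near 0, as Calr and Canx did. Of 12 measured genes 7 were higher, or 6 under either rescaling, and the median of 0.01 became -0.0069 and -0.01. Uggt1, which marks unfolded chains for another round, read 17.5 FPKM in WT and 15.9 FPKM in KO cells (-0.13), Lman1, a cargo receptor, had a ratio of -0.09 and Mlec, malectin, one of 0.10. The prolyl isomerases had 4 of 6 genes higher, with a median of 0.16 over these few genes. Ppic read 17.1 and 22.0 FPKM (0.35), and Fkbp9 and Fkbp2 had ratios of 0.19 and 0.13.

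Genes of protein entry into the ER had 13 of 23 genes lower, with a median of -0.0095. Tram1, of the translocation channel, read 67.2 FPKM in WT and 58.2 FPKM in KO cells (-0.20), against 0.17 for Ssr4 and 0.13 for Sec61g. Subunits of the oligosaccharyltransferase, which adds sugars to chains, had 8 of 12 genes lower with a median of -0.03, where Ost4 had -0.14, Ostc -0.13 and Tmem258 0.08. Genes of ER-associated degradation had 13 of 20 genes higher, but 10 after trimmed-mean scaling and 8 after centring, and their median of 0.02 became -0.0022 and -0.0067. Herpud1, induced by ER stress, read 57.7 and 51.1 FPKM (-0.17), Syvn1 had -0.16, and the ligase gene Rnf5 read 75.3 and 89.4 FPKM (0.24).

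The stress sensors and the effectors of the PERK arm had 10 of 15 genes higher, or 8 under either rescaling, with a median of 0.05. Atf4, the factor that PERK, the product of Eif2ak3, induces by translation, read 95.1 FPKM in WT and 105.5 FPKM in KO cells (0.15), and the phosphatase subunit gene Ppp1r15a read 16.9 and 19.4 FPKM (0.19). Ddit3, which encodes CHOP, read 11.9 and 11.0 FPKM (-0.11). The sensors themselves lie outside the rule for naming and are given because they act on the 10. Ern1 read 17.7 and 17.5 FPKM (-0.01) and Atf6 31.6 and 31.7 FPKM (0.0030). Eif2ak3 read 22.8 and 21.3 FPKM (-0.10), near the ratio of Hsp90b1.

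Chaperones of the cytosol and mitochondria are relatives of the ER chaperones in other compartments. They had 20 of 22 genes higher, or 19 under either rescaling, with a median of 0.08. Below 0 were 2 of the 22, against 42.4% of all measured genes and 34.6% of those at or above the level of Dnajb9. Hspa9, the mitochondrial Hsp70, read 199.4 FPKM in WT and 232.4 FPKM in KO cells (0.22), Cct4 122.8 and 139.6 FPKM (0.18) and Trap1, the mitochondrial Hsp90, 67.0 and 75.2 FPKM (0.16). The nearest counterparts of Hspa5 and Hsp90b1, Hspa8 and Hsp90ab1, chosen after their values were seen, had ratios of 0.08 and 0.06, against -0.15 and -0.10. The difference between compartments was not tested.

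**Figure D5:**
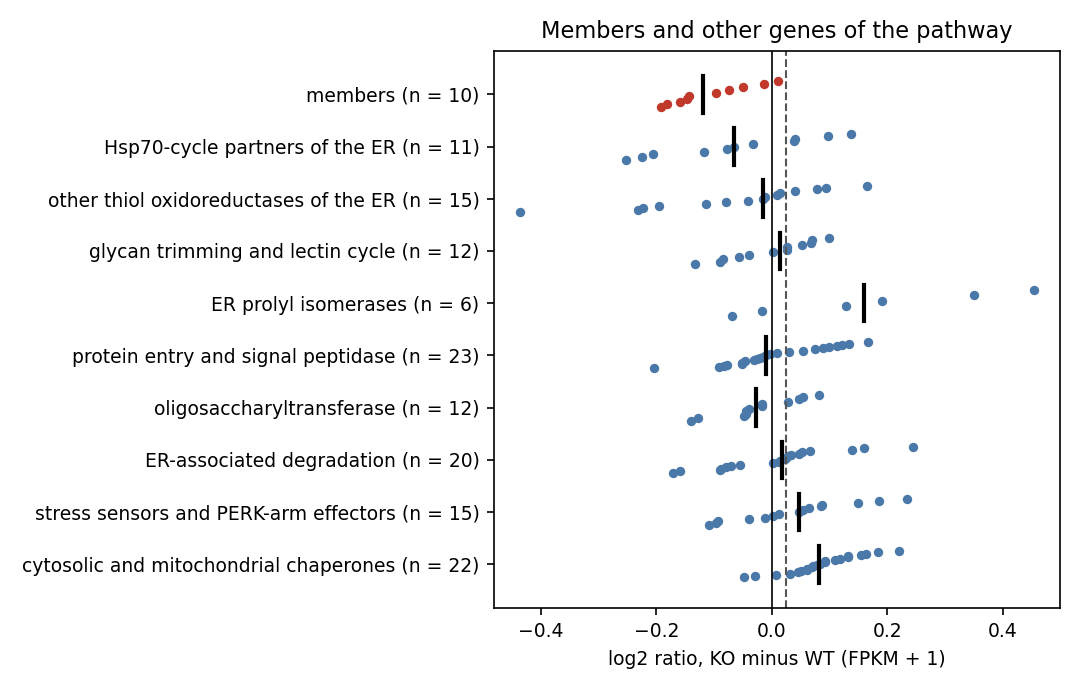
Log2 ratio (KO minus WT, FPKM + 1) of each measured gene of the 10 (members, red) and of 9 lists of other chaperone and ER genes (blue), 1 point a gene. Black bars are medians and the dashed line is the median of all measured genes; the median of the 10 lies at -0.12 and that of the cytosolic and mitochondrial chaperones at 0.08.

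Markers of the cultured cells also differed between the libraries. Macrophage markers had 14 of 15 measured genes below 0, against 42.4% of all measured genes. Under either rescaling 15 were, and there the 42.4% does not apply. Their median was -0.24, and the summed level over all 16 was 11878.5 FPKM in WT and 9729 FPKM in KO cells. Lyz2 read 7501 and 5674 FPKM and Cd68 1573 and 1546 FPKM. Osteoclast markers had 9 of 12 genes above 0, with a median of 0.12. Below 0 were 3 of the 12, against 42.4% of all measured genes and 34.6% of those at or above the level of Dnajb9. The osteoclast markers summed to 20752 and 23338 FPKM, led by Acp5 at 7737 and 8636 FPKM and Ctsk at 6106 and 6862 FPKM. The 3 below 0, named after their values were seen, were Itgb3 at -0.28, Calcr at -0.06 and Dcstamp at -0.02. Both sets thus held abundant markers in each library, though not every marker was abundant. Marco read 0.648 FPKM in WT and 0.441 FPKM in KO cells and Cd163 1.70 and 1.17 FPKM, both named after their values were seen. The part of these markers in the differences of the 10 was not tested, and in bulk RNA fewer cells of a type and less RNA per cell cannot be told apart.

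A value of 0 in these files can be a failed estimate, since Actr3, an actin regulator that cells in general express, had 433.9 FPKM in KO cells but a listed 0 in WT cells. No absence is therefore read from a listed 0 below. Plasma cells are rich in ER chaperones. Of 11 B and plasma cell markers only Sdc1, which other cells also express, was measured, at 92.3 and 94.8 FPKM. Cd79b was next, at 0.851 and 0.898 FPKM, Ms4a1 and Pou2af1 were listed at 0 in the WT library, and Mzb1 at 0 in the KO library. The summed level of the list was 94.4 and 97.6 FPKM. Neutrophil markers, led by S100a8 at 70.2 and 67.0 FPKM and S100a9 at 53.6 and 55.4 FPKM, summed to 159.7 and 155.7 FPKM, with Retnlg at 0 in the KO library. Stromal markers summed to 8.258 and 8.003 FPKM, led by Col1a1 and Col1a2, with Lum and Tnfsf11 listed at 0 in both libraries. Markers of T and NK cells summed to 7.03 and 6.65 FPKM, nearly all of it Cd4, with Cd3d at 0.190 and 0.159 FPKM and Cd3e and Nkg7 listed at 0 in both. The part of each in the result was not tested.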

How the data were processed

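Poly-A RNA of 2 cultures was sequenced, 1 library per genotype. The authors deposited 1 value per gene and library, read here as FPKM from the values themselves, since neither the headers nor the labels name the unit. TopHat, edgeR and mm10 appear without roles in the submitters' processing notes; quantifier, annotation, filters and scaling are not given in those sources. A constant of 0.000001 was subtracted. Depth is known only in relative terms, from the most common ratio among 1657 genes that both libraries list above 0 and under 0.15 FPKM. Log2 ratios used a pseudocount of 1 FPKM, which understates differences of low genes.

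The 10 genes and the lists were chosen with earlier results of these data known. Genes named from a list are its 3 with the largest absolute log2 ratio at 10 FPKM or more, or for cell types its 2 most abundant; others are said to be chosen afterwards. Of 120 ER list genes, 119 were found. Promoter windows, all 10 matched by symbol, came from RefSeq (GRCm38.p6), gene coordinates from GENCODE M21. Exon overlaps ignored strand. Near copies were sought with blastn 2.17.0. Simulated data with 1.5-fold changes were used to test the log2 ratios, the trimmed-mean scaling and the count past 1.2-fold. Differences as small as those of the 10, the list medians and the sequence searches were not tested in that way. Alternatives were pseudocounts of 0.25 and 5, trimmed-mean scaling (30% of ratios and 5% of levels trimmed at each end), centring on the median gene, other minimum levels, means in place of medians and leaving out Xbp1. Python 3.11.15, numpy 2.4.6, pandas 2.3.3 and matplotlib 3.10.9 were used.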

Additional observations from a re-analysis of the deposited data

How the results depend on the processing

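Over 40 recomputed log2 ratios of the 10 genes the largest shift was 0.03, below the spread of genes of like level (0.10 to 0.13). Both rescalings move these genes nearly alike, and pseudocounts move abundant genes little, so small shifts were largely fixed by construction. Calr alone changed sign, to -0.01 under both rescalings. The median of the 10 ran from -0.15 (centring on the median gene) to -0.11 (pseudocount of 5), and the mean over members was -0.10. With a pseudocount of 5, 4 of the 10 were past 1.1-fold, in place of 5. Of 63 recomputed medians of other lists 1 moved by over 0.05, that of the prolyl isomerases, to 0.10 with no minimum. Measured genes past 1.1-fold numbered 905 lower and 1161 higher with a pseudocount of 5, and 741 and 1144 with a minimum of 10 FPKM, against 1481 and 1920. Past 1.2-fold they numbered 300 and 187 with that pseudocount and 311 and 237 with that minimum, against 623 and 493. These counts follow from how the pseudocount and minimum are built. The 1.1-fold threshold and the comparison with genes of like level were chosen after seeing the data. No paired analysis was possible because there was 1 library a genotype, and none could be left out. Depth limits low genes most; all of the 10 are above 37 FPKM.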
